A study of Mus musculus with 12 samples.

Results

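Psca and 6 members of the Ly6 family, Ly6a, Ly6c1, Ly6c2, Ly6e, Ly6g and Ly6i, were followed in whole lung of mice given house dust mite extract. The genes were chosen as a list of symbols from the Ly6 cluster of mouse chromosome 15, which leaves out other genes there such as Ly6d and Ly6k. They are 7 of the 33924 genes listed in one set of libraries, and 6 of them are among the 22609 genes listed in the other. Ly6g was not analysed here in the second set.

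Expression was measured by RNA sequencing of 12 lung libraries from B6 mice aged 6 to 8 weeks, in 2 sets with their own PBS controls. The RNase III set held wild-type lungs given PBS (2 libraries, replicates 1 and 2), extract of the house dust mite abbreviated D.f. without RNase III (2, replicates 3 and 4) or D.f. extract with RNase III (2, replicates 5 and 6), and no group given PBS with RNase III. The knockout set held wild type with PBS (1, replicate 1), TLR3MAVS double knockout with PBS (1, replicate 2), wild type with D.f. extract (2, replicates 3 and 4) and double knockout with D.f. extract (2, replicates 5 and 6). Exposure lasted 14 to 16 h. The labels give neither the alleles of the double knockout nor whether libraries of a group came from separate animals, so the p-values cover the spread between libraries alone, and this may be technical.

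Ly6 genes encode small surface proteins that share a fold of disulfide-linked fingers (the three-finger or uPAR domain), and the members studied here are held in the membrane by a lipid anchor. Ly6a, also called Sca-1, is known from blood stem cells, endothelium and activated lymphocytes. Ly6c1 and Ly6c2 together make up the Ly6C antigen, which is found on endothelium and marks inflammatory monocytes, and Ly6g marks neutrophils. Ly6e is widely expressed and is induced by interferon, and Psca, prostate stem cell antigen, is known from epithelia of stomach, bladder and prostate. TLR3 senses double-stranded RNA in endosomes, MAVS relays the signal of RNA sensors in the cytosol, and RNase III is an enzyme that cuts double-stranded RNA.

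The cluster lies on chromosome 15 of NCBIM37, the same assembly as mm9. Psca is at 74545269 to 74547493 on the plus strand, Ly6e at 74785481 to 74790335 (plus), Ly6i at 74810242 to 74813860 (minus), Ly6a at 74825308 to 74828064 (minus), Ly6c1 at 74875447 to 74879260 (minus), Ly6c2 at 74938590 to 74942114 (minus) and Ly6g at 74987123 to 74989169 (plus). No other annotated gene overlaps any of the 7. The reads were 100 bases long, and the deposited counts leave out reads with more than 1 alignment. How far the members can be told apart therefore depends on their sequence. Of all 100-base windows in the exons, 8.38% in Ly6c1 and 8.41% in Ly6c2 had an exact copy elsewhere on chromosome 15, and 0 did in the other 5 members. Within 2 mismatches the shares were 84.6% for Ly6c1, 84.7% for Ly6c2, 0.958% for Ly6a and 0 for the others. Ly6c1 and Ly6c2 are thus the pair whose counts are uncertain, because a read can be placed by a base or so. Their coding sequences were identical at 97.7% of positions and differed at 9 of 396 bases. Ly6a and Ly6i, which are neighbours, were identical at 86.4% of aligned coding bases. The window below, the coding bases 228 to 327 of both genes (exonic, minus strand, NCBIM37), shows how close the Ly6c copies are. Ly6c1 is at chr15:74875901-74876000 and Ly6c2 at chr15:74939042-74939141, and the capitals mark the 2 bases that differ.
Ly6c1: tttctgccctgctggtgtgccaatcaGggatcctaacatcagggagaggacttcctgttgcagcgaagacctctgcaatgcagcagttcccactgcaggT
Ly6c2: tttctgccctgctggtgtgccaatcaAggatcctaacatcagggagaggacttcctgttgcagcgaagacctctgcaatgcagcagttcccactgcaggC

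The sequence upstream of the Ly6c genes is less alike than their coding sequence. RefSeq promoter entries, on GRCm38.p6, matched 3 of the 7 members (Ly6c1, Ly6c2 and Ly6g). They are shown for the Ly6c pair because the pair differed in its response to the extract, as described further on. The 250 bases before the most upstream start lie on the minus strand at chr15:75048838-75049087 for Ly6c1 and chr15:75111972-75112221 for Ly6c2. These positions are on another build than the gene positions above. In a local alignment 164 of 227 columns were identical (72.2%). The capitals mark the longest run that both share, 20 bases, which begins 40 bases before the start of Ly6c1 and 65 bases before that of Ly6c2.
Ly6c1: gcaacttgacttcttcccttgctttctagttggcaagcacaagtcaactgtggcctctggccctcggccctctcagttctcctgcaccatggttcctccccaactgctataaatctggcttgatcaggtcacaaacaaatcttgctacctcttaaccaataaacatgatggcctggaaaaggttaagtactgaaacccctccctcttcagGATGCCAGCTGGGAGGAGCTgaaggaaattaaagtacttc
Ly6c2: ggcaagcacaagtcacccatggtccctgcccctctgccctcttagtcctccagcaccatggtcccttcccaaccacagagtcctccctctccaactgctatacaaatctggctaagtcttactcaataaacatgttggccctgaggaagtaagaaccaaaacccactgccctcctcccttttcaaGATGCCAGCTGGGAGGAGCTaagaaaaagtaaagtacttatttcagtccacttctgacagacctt
The core letters of the interferon-stimulated response element, GAAANNGAA, and of the gamma-activated site, TTCNNNGAA, were searched on both strands. Neither was found in the 250 bases of Ly6c1, Ly6c2 or Ly6g. Of 32851 promoters of that length 7.13% held the first and 7.02% the second.

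The libraries of the RNase III set held 17754518 to 25714074 reads assigned to genes, and those of the knockout set 15687699 to 20945618. Levels are given as CPM, the usual scaling of counts to library size, here with TMM factors. A count of 0 allows up to 3 reads, or 0.117 to 0.191 CPM depending on the library. Such limits cover counting error only. Mavs measured 2.35 to 3.09 CPM in the 3 libraries labelled double knockout against 32.2 to 36.4 CPM in the 3 wild-type libraries of their set. Tlr3 measured 10.04 to 14.8 CPM against 42.4 to 156 CPM. The lung marker genes summed to 6695 to 14697 CPM over the 12 libraries. Club cell markers summed to 12900 to 27227 CPM in the first set and 1152 to 1834 CPM in the second, so levels are compared within a set. Fewer cells of a type and less RNA per cell cannot be told apart in whole lung.

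Per kilobase of exon, Ly6e and Ly6a were the most abundant members. The exon lengths, 2301 bases for Ly6e and 819 for Ly6a, come from an annotation that need not be the one used for counting. In PBS lungs of the RNase III set, Ly6e was at 191 ± 1.70 CPM per kilobase (SD, n = 2) and Ly6a at 191 ± 84.9. Ly6c1 was at 56.8 ± 26.4, Ly6c2 at 3.14 ± 0.266 and Ly6i at 1.97 ± 1.04 CPM per kilobase. Per kilobase, Ly6e and Ly6a did not differ beyond their spread, and Ly6c2 and Ly6i did not overlap but lay close together. In CPM, without the division by length, Ly6e at 437 to 442 lay above Ly6a at 107 to 205. With D.f. extract the level per kilobase was 613 ± 36.02 for Ly6e, 576 ± 89.7 for Ly6a, 129 ± 35.0 for Ly6c1, 101 ± 18.3 for Ly6i and 80.7 ± 8.61 for Ly6c2. Here Ly6e overlapped Ly6a, Ly6c1 overlapped Ly6i, and the higher Ly6c2 library lay just under the lower Ly6i library. The order of the means was the same in wild-type lungs of the knockout set given extract, where Ly6e and Ly6a did not overlap. The level per kilobase in these lungs was 688 ± 45.0 for Ly6e, 507 ± 69.9 for Ly6a, 132 ± 22.1 for Ly6c1, 77.3 ± 7.32 for Ly6i and 38.5 ± 5.68 for Ly6c2.

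**Figure D1:**
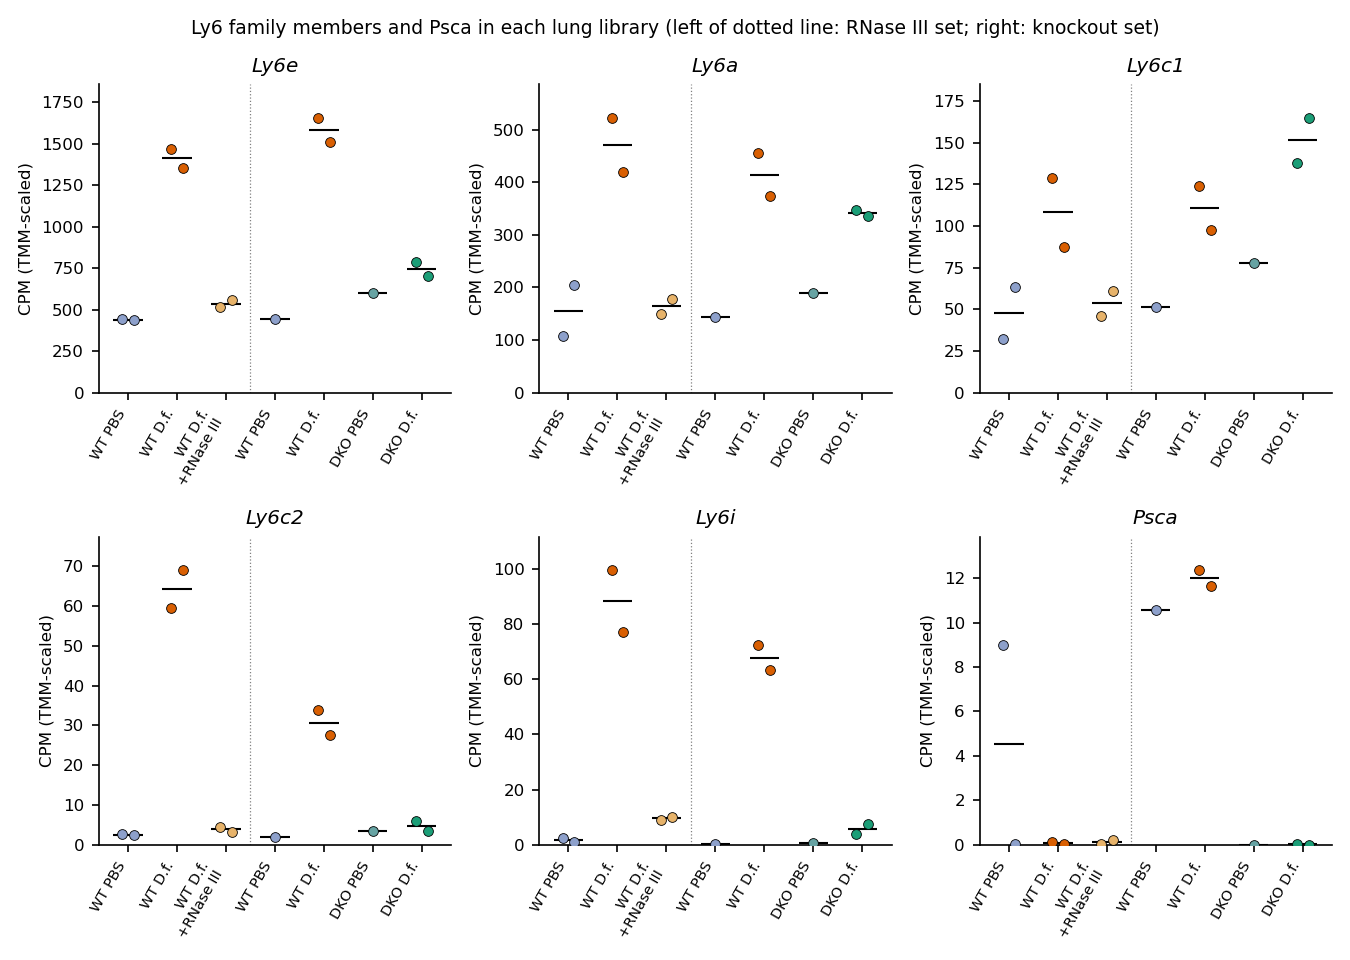
Level of 6 genes in each library, in CPM (linear axes from 0), with the RNase III set left of the dotted line and the knockout set right of it. Points are libraries and bars are group means. Ly6c2 and Ly6i stand high in the wild-type libraries with D.f. extract, Ly6c1 is as high or higher in the double-knockout D.f. libraries, and Psca is present in 4 libraries.

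D.f. extract against PBS in wild-type lung asks which genes respond to the mite extract. Ly6e, Ly6i, Ly6a and Ly6c2 rose in the RNase III set, 4 of the 5 members tested, where 6.51% of all 17165 genes tested rose (edgeR quasi-likelihood test, Benjamini-Hochberg adjusted p under 0.05). The median log2 fold change of the 5 was 1.68, and over all genes it was -0.01. Of 6 members tested in the knockout set 4, again Ly6e, Ly6i, Ly6a and Ly6c2, rose, against 1.38% of 15294 genes. When the wild-type libraries of both sets with PBS or untreated extract (7) were fitted together, with a term for the set, Ly6c1 was called as well, 5 of 6 members against 8.53% of genes. The 4 calls of the knockout set alone were lost when either wild-type D.f. library was left out (adjusted p 0.109 to 0.269), which leaves 1 library a group in that contrast.

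Ly6i, the closest relative of Ly6a among the members, had the largest log2 fold change of the members tested. It measured 2.37 and 1.09 CPM in the PBS libraries of the RNase III set and 99.7 and 77.0 CPM with D.f. extract. Wild type of the knockout set measured 0.228 CPM, from 4 reads, with PBS and 72.4 and 63.3 CPM with the extract. The groups did not overlap in either set. The log2 fold change was 5.70 ± 0.33 (SE; 52.0-fold, adjusted p = 0.00026, edgeR) in the first set and 8.18 ± 0.62 (adjusted p = 0.0171) in the second. There the 4 reads leave the size less precise than the SE shows. Over both sets it was 6.13 ± 0.40.

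Ly6c2, a marker of inflammatory monocytes, followed. The PBS libraries of the RNase III set measured 2.65 and 2.35 CPM and the D.f. libraries 59.4 and 69.1 CPM. The wild-type libraries of the knockout set measured 1.88 CPM with PBS and 33.9 and 27.5 CPM with the extract. Every extract library was over every PBS library of its set. The log2 fold changes were 4.68 ± 0.21 (25.7-fold, adjusted p = 0.00012, edgeR) and 4.03 ± 0.45 (16.3-fold, adjusted p = 0.0296).

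Ly6e and Ly6a, at much higher levels, changed by smaller factors. Ly6e, also known as thymic shared antigen, measured 442 and 437 CPM with PBS and 1469 and 1351 CPM with D.f. extract in the RNase III set. Its wild-type values in the knockout set were 443 CPM with PBS and 1657 and 1510 CPM with the extract. The 3 wild-type PBS values lay close together and the 4 extract values stood clear of them. The log2 fold change of Ly6e was 1.68 ± 0.14 (adjusted p = 0.00074, edgeR) and 1.84 ± 0.14 (adjusted p = 0.0179). Ly6a measured 107 and 205 CPM with PBS and 524 and 420 CPM with the extract in the RNase III set, and 144 CPM against 455 and 374 CPM in the knockout set. The PBS libraries of Ly6a differed by more than those of Ly6e, and the extract libraries were all above them. Its log2 fold change was 1.59 ± 0.30 (adjusted p = 0.0165, edgeR) and 1.53 ± 0.16 (adjusted p = 0.0294), the latter not called in 1 fit over all 12 libraries (0.0619). Leaving out D.f. replicate 3 or 4 of the RNase III set ended the first of these calls (adjusted p = 0.108 and 0.0757).

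Ly6c1, the near copy of Ly6c2, measured 32.0 and 63.4 CPM with PBS and 129 and 87.4 CPM with D.f. extract in the RNase III set. The wild-type libraries of the knockout set measured 51.5 CPM with PBS and 124 and 97.7 CPM with the extract. The extract libraries were above the PBS libraries in both sets, but neither difference passed the test alone. The log2 fold change was 1.18 ± 0.33 (adjusted p = 0.0666, edgeR) and 1.11 ± 0.20 (adjusted p = 0.0775), and DESeq2 called it in each set. Over both sets Ly6c1 rose by 1.13 ± 0.25 (adjusted p = 0.0209, edgeR). That call was lost without D.f. replicate 3 of the RNase III set (adjusted p = 0.0893), wild-type D.f. replicate 3 (0.0596) or wild-type PBS replicate 1 (0.0700) of the knockout set.

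**Figure D2:**
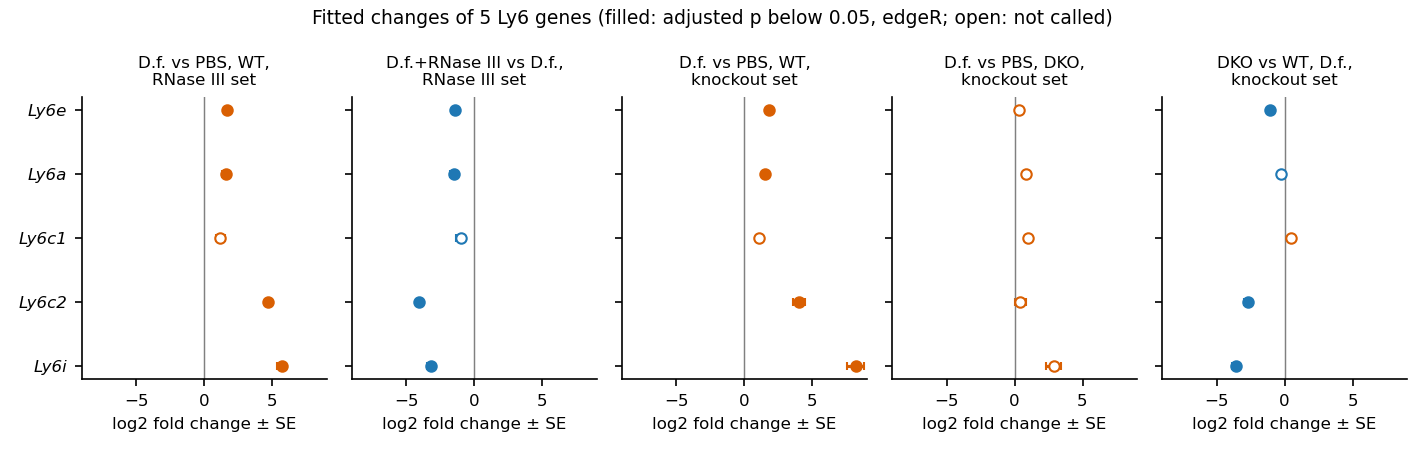
Log2 fold change ± SE of 5 Ly6 genes in 5 comparisons, fitted with edgeR on the libraries of each set; filled points passed an adjusted p of 0.05 and open points did not. With D.f. extract in wild type Ly6i and Ly6c2 lie at 4.03 or more and Ly6e, Ly6a and Ly6c1 between 1.11 and 1.84, while in the double knockout no point is filled.

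RNase III treatment of the extract asks how the members respond once an enzyme that cuts double-stranded RNA has been added to it. Against untreated extract, Ly6e, Ly6i, Ly6a and Ly6c2 were lower with RNase III, 4 of 5 members tested, where 4.85% of genes fell. The median of the 5 was a log2 fold change of -1.52. Against PBS, 0 of the 5 were called, where 0.00583% of genes were, 1 gene in all. In that comparison 2 members had an unadjusted p under 0.05, Ly6i and Ly6c2, and DESeq2 called 1, Ly6i. The comparisons share libraries, so their values are given side by side.

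Ly6i with RNase III-treated extract measured 9.03 and 10.2 CPM, between the PBS and the untreated-extract libraries and overlapping neither. Its log2 fold change was -3.20 ± 0.27 against untreated extract (adjusted p = 0.00139, edgeR) and 2.503 ± 0.32 against PBS (adjusted p = 0.216, unadjusted 8.6e-05). Without PBS replicate 1 or replicate 2 the difference from PBS passed the test, at a log2 fold change of 3.14 (adjusted p = 0.0072, edgeR) and 2.02 (adjusted p = 0.0268). Ly6c2 measured 4.51 and 3.26 CPM, close above the PBS libraries. It differed by -4.05 ± 0.20 from untreated extract (adjusted p = 0.00028, edgeR) and by 0.64 ± 0.22 from PBS (adjusted p = 0.960).

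Ly6e measured 515 and 557 CPM with RNase III-treated extract, above both PBS libraries and far below the untreated-extract libraries. It fell by 1.40 ± 0.14 against untreated extract (adjusted p = 0.00198, edgeR), a call lost without replicate 5 (adjusted p = 0.0621). Ly6a measured 149 and 179 CPM, inside the range of its PBS libraries. Its log2 fold change against untreated extract was -1.52 ± 0.30 (adjusted p = 0.0255, edgeR), and the call was lost without any 1 of replicates 3 to 6 of the set (adjusted p 0.107 to 0.255). Ly6c1 measured 46.2 and 60.8 CPM, also inside its PBS range, and its log2 fold change of -1.02 ± 0.33 did not pass (adjusted p = 0.123). Against PBS, the log2 fold changes of Ly6e, Ly6a and Ly6c1 were 0.29 ± 0.13, 0.07 ± 0.29 and 0.16 ± 0.33.

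The double knockout asks which responses depend on TLR3 and MAVS together. With D.f. extract, Psca, Ly6e, Ly6i and Ly6c2 were lower in double knockout than in wild type, 4 of 6 members tested, where 2.01% of genes were lower. Psca is in this count without a response to lose. It did not change with extract in wild type (0.18 ± 0.27, adjusted p = 0.774, edgeR). With PBS it held 0 reads in double knockout against 186 in wild type. The median log2 fold change of the 6, Psca included, was -1.90, and over all genes 0.01. These 4 calls were lost without wild-type D.f. replicate 3 or replicate 4 (adjusted p 0.0552 to 0.276). Within the double knockout, extract against PBS called 0 of 6 members, and 0.0% of genes, that is 0 of 15294 (edgeR). In that comparison 847 genes had an unadjusted p under 0.05 and DESeq2 called 36 genes. Of the members 3 had an unadjusted p under 0.05, Ly6i, Ly6a and Ly6c1, and DESeq2 called those 3. Without either double-knockout D.f. library, which leaves 1 extract and 1 PBS library in the contrast, the same 3 passed in edgeR (adjusted p up to 0.00236). In other fits that left out 1 library their adjusted p reached 0.9996.

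Ly6c2 measured 3.47 CPM in the double knockout with PBS and 6.06 and 3.35 CPM with D.f. extract, so that the extract libraries lay on either side of the PBS library. Both wild-type extract libraries were far above these. Double knockout differed from wild type by -2.71 ± 0.30 on the log2 scale with extract (6.54-fold lower, adjusted p = 0.0207, edgeR). Ly6i measured 0.757 CPM in the double knockout with PBS, from 12 reads, and 3.88 and 7.39 CPM with extract. Both extract libraries were above the PBS library and below the wild-type extract libraries. Against wild type with extract, Ly6i differed by -3.58 ± 0.29 (11.98-fold lower, adjusted p = 0.0116, edgeR), and within the double knockout the log2 fold change was 2.89 ± 0.56 (adjusted p = 0.819).

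Ly6e measured 603 CPM in the double knockout with PBS and 787 and 703 CPM with extract. The double-knockout extract libraries were above their PBS library and far below the wild-type extract libraries. The difference from wild type was -1.09 ± 0.11 (adjusted p = 0.0172, edgeR). Ly6a and Ly6c1 had another pattern. Ly6a measured 189 CPM with PBS and 348 and 336 CPM with extract in the double knockout, below the wild-type extract libraries and well above both PBS libraries of the set. It differed from wild type by -0.28 ± 0.12 (adjusted p = 0.312, edgeR). Ly6c1 measured 77.8 CPM with PBS and 138 and 165 CPM with extract in the double knockout, and both extract libraries were above the 2 wild-type ones. The difference was 0.45 ± 0.15 (adjusted p = 0.216, edgeR). Within the double knockout the log2 fold change with extract was 0.86 ± 0.16 for Ly6a and 0.96 ± 0.20 for Ly6c1, beside 1.53 ± 0.16 and 1.11 ± 0.20 in wild type.

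Whether the response to extract differs between the genotypes is the interaction of both factors. It called 0 of 6 members, where 0.00654% of genes, 1 gene, were called (edgeR). Of the members 4 had an unadjusted p under 0.05, and DESeq2 called 3, Ly6e, Ly6i and Ly6c2. Without either double-knockout D.f. library, which leaves 1 extract and 1 PBS library of that genotype, Ly6e, Ly6i, Ly6a and Ly6c2 passed in edgeR (adjusted p up to 0.0473). In other fits that left out 1 library the adjusted p of Ly6e, Ly6i and Ly6c2 reached 0.852 and that of Ly6a 0.9999. The interaction term was -5.29 ± 1.11 for Ly6i (adjusted p = 0.236), -3.59 ± 0.59 for Ly6c2 (0.179), -1.53 ± 0.19 for Ly6e (0.149), -0.67 ± 0.21 for Ly6a (0.394) and -0.14 ± 0.27 for Ly6c1 (0.934). A difference between the genotypes in the response of a member is therefore not established by the edgeR test, which has 2 residual degrees of freedom here and 1 PBS library a genotype. These PBS libraries differed themselves, without a replicate check. The double-knockout PBS library held 1.47 times the Ly6c1 of the wild-type one (95% counting interval 1.35 to 1.61) and 1.33 times the Ly6e (1.29 to 1.37). It held 1.28 times the Ly6a (1.21 to 1.35) and 1.80 times the Ly6c2 (1.15 to 2.86). For Ly6i the ratio was 3.24 (0.98 to 13.8), from 12 reads against 4. These are ratios of shares of assigned reads, without TMM factors.

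The split between near neighbours shows the same change without any normalization between libraries. Of the reads assigned to Ly6c1 or Ly6c2 in the RNase III set, Ly6c2 took 7.64% and 3.58% with PBS, 31.5% and 44.1% with D.f. extract and 8.90% and 5.09% with RNase III-treated extract. Its share in the knockout set was 3.52% with PBS and 21.5% and 21.96% with extract in wild type, and 4.27% with PBS and 4.21% and 1.99% with extract in the double knockout. High shares thus occurred in the 4 wild-type libraries with untreated extract, and the other 8 libraries were all under 10%. The share says that the pair changed unequally, and not which of the 2 changed. Of the reads of Ly6a and Ly6i, Ly6i took 16.0% and 15.5% with untreated extract in the RNase III set and 13.7% and 14.5% in the knockout set wild type. It took 5.70% and 5.41% with RNase III-treated extract, 1.10% and 2.15% in the double knockout with extract and at most 2.17% in the 4 PBS libraries.

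**Figure D3:**
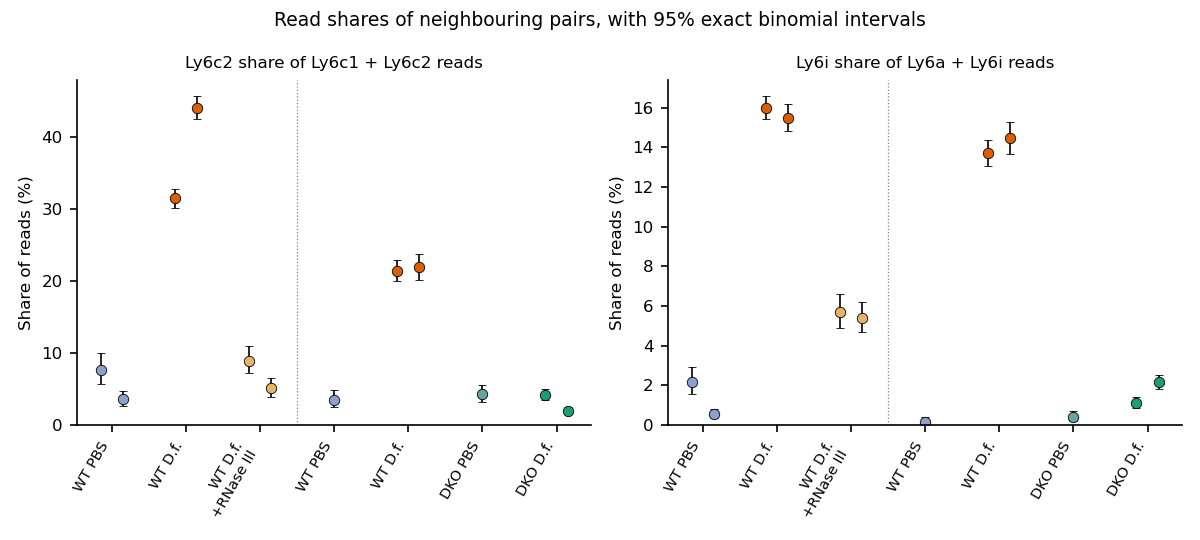
Share of Ly6c2 among the reads of Ly6c1 and Ly6c2 (left) and of Ly6i among the reads of Ly6a and Ly6i (right) in each library, in percent, with 95% exact binomial (Clopper-Pearson) intervals that cover counting error only. The 4 wild-type libraries with untreated D.f. extract lie at 21.5% to 44.1% on the left and 13.7% to 16.0% on the right, above all others.

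Cell type markers moved beside these results. Of 8 markers of inflammatory monocytes 7 rose with D.f. extract in the RNase III set and 5 were lower with RNase III than with untreated extract. In wild type of the knockout set 2 of the 8 rose, Fcgr1 and Ms4a4c (edgeR; 7 at an unadjusted p under 0.05, DESeq2 5), and within the double knockout 0 of 8 (1 unadjusted, DESeq2 0). Their summed level was 193 to 216 CPM with PBS, 868 to 955 CPM with extract and 249 to 258 CPM with RNase III-treated extract. The sum in the knockout set was 153 CPM with PBS and 495 to 706 CPM with extract in wild type, and 192 CPM with PBS and 253 to 361 CPM with extract in the double knockout. No marker of this list was at 0 in any group. The sum was thus highest in the groups in which Ly6c2 and Ly6i were highest. With extract, 2 of the 8 were lower in double knockout, the Fc receptor gene Fcgr1 at -2.47 ± 0.27 and Ms4a4c at -2.75 ± 0.35. The clotting factor gene F13a1 was higher at 1.22 ± 0.15, and the chemokine receptor gene Ccr2 differed by -0.07 ± 0.25. The part of monocyte number in the Ly6c2 and Ly6i results was not tested.

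Endothelium is a known source of Ly6a and Ly6c1. Of its 12 markers 0 rose with extract in either set, and 1, Tie1, fell in the RNase III set (edgeR; 4 and 0 at an unadjusted p under 0.05, DESeq2 3 and 0). Their sum was 3595 to 4257 CPM with PBS, 3027 to 3578 CPM with extract and 3782 to 3862 CPM with RNase III-treated extract. Over the 6 libraries of the knockout set it was 4020 to 5087 CPM. Wild-type libraries of that set measured 4467 CPM with PBS and 4020 to 4522 CPM with extract. The extract sums thus lay below the PBS sums in the first set, and the sums overlapped in the second. In wild type with extract 1 of the 12 markers had a positive log2 fold change in the first set and 5 of 12 in the second. With RNase III against untreated extract 12 of 12 were positive. The part of endothelium in the Ly6a and Ly6c1 results was not tested. Activated lymphocytes also express Ly6a. Of 7 T cell markers 4 rose with extract in the RNase III set (Lck, Cd5, Cd8a and Cd3g) and 6 fell with RNase III against untreated extract. Their sum was 32.9 to 43.2 CPM with PBS, 71.2 to 74.5 CPM with extract and 28.6 to 31.6 CPM with RNase III-treated extract. In the other set 0 of 7 passed with extract in wild type (edgeR; 5 unadjusted, DESeq2 1), and 1, the kinase gene Lck, was lower in double knockout with extract. The sum there was 20.4 CPM with PBS and 44.6 to 45.4 CPM with extract in wild type, and 30.7 CPM with PBS and 21.3 to 21.4 CPM with extract in double knockout. The T cell sum was thus highest in the groups with untreated extract in wild type, as were Ly6a, Ly6c2 and Ly6i. Within the double knockout the T cell sum and Ly6a went opposite ways. The sum was lower with extract than with PBS, and Ly6a was higher (189 CPM with PBS, 348 and 336 CPM with extract).

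Of 6 markers of patrolling monocytes 2, Itgal and Spn, rose with extract and fell with RNase III in the RNase III set, where the sum was 156 to 173 CPM with PBS, 269.86 to 269.93 CPM with extract and 143 to 151 CPM with RNase III-treated extract. In the other set 0 of 6 passed in either genotype or between them with extract (edgeR; 2, 0 and 0 unadjusted, DESeq2 1, 0 and 0). The sum there was 97.9 CPM with PBS and 161 to 164 CPM with extract in wild type. In double knockout it was 178 CPM with PBS, the highest of that set, and 107 to 176 CPM with extract. Of the markers of plasmacytoid dendritic cells 2 of 3 tested in the knockout set, Ccr9 and Siglech, rose with extract in wild type and were lower in double knockout. Their sum was 9.67 CPM with PBS and 21.6 to 25.1 CPM with extract in wild type, and 8.13 CPM and 5.65 to 8.98 CPM in double knockout. In the RNase III set 0 of 4 passed with extract (edgeR; 1 unadjusted, DESeq2 0), with sums of 15.4 to 51.2 CPM with PBS and 20.01 to 23.8 CPM with extract.

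Neutrophil markers, 11 genes, summed to 46.6 to 175 CPM with PBS and 244 to 381 CPM with extract in the RNase III set. With RNase III-treated extract the sum was 93.9 to 128 CPM. Of 8 tested there 2, Csf3r and Cxcr2, rose with extract (edgeR, 3 unadjusted, DESeq2 2). With RNase III 1, Csf3r, was lower than with untreated extract (3 unadjusted, DESeq2 1). In the knockout set 0 of 9 passed with extract in wild type (3 unadjusted, DESeq2 0) or between the genotypes with extract (0 and 0). Their sum in the knockout set was 34.9 CPM in wild type with PBS, 127 CPM in double knockout with PBS, 81.1 to 140 CPM in wild type with extract and 94.9 to 294 CPM in double knockout with extract. The part of lymphocytes, patrolling monocytes, plasmacytoid dendritic cells and neutrophils in the members' results was not tested. Ly6g, the gene of the neutrophil antigen, had 2 reads in D.f. replicate 3, 2 in replicate 5 and 0 in the other 4 libraries of the RNase III set. It stayed under the 3 reads that a count of 0 allows. In the annotation used here its exons span 336 bases, with 138 windows of 100 bases, against 796 to 2301 exon bases in the other members. The annotation behind the counts was not given. The part of depth and of a short gene model in the low Ly6g counts was not tested.

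Psca did not follow the extract. It had 163 reads (9.002 CPM) in PBS replicate 1 of the RNase III set and 1 read in PBS replicate 2. The 4 extract libraries of that set held 3, 1, 1 and 4 reads. The wild-type libraries of the knockout set held 186 reads with PBS and 251 and 194 with extract, 10.6, 12.4 and 11.6 CPM, and the double-knockout libraries held 0 with PBS and 1 and 0 with extract. Psca was therefore present at 163 to 251 reads in 4 of the 12 libraries, all wild type, and at 4 reads or fewer in the other 8, of which 5 are wild type. Among wild-type libraries of the knockout set, extract and PBS differed by 0.18 ± 0.27 (adjusted p = 0.774, edgeR).

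The ratio of Psca between wild type and double knockout, taken on shares of assigned reads without TMM factors, rests on 1 read. With extract it was 452 (445 reads against 1, 95% counting interval 80.6 to 17879). With PBS the double knockout held 0 reads against 186 in wild type. The share in double knockout over that in wild type was 0 there, with a 95% counting interval up to 0.0216. Over both treatments Psca was the member called between the genotypes, 1 of 6 where 0.177% of genes were lower (adjusted p = 0.00352, edgeR). Its log2 fold change of -8.85 depends on the prior count and rests on 631 reads against 1. The SE is left out, because the ratio of shares, 623, had a 95% counting interval of 111 to 24646. The call was lost without wild-type D.f. replicate 3 (adjusted p = 0.0811) or 4 (0.0775) or double-knockout D.f. replicate 5 (0.0585), and in 1 fit over all 12 libraries (0.115). PBS replicates 1 and 2 of the RNase III set, both labelled wild type with PBS, also differed, by a ratio of such shares of 206 (95% counting interval 36.4 to 8169). The filter on low counts left Psca out of the test in the RNase III set. With PBS replicate 2 left out it entered the test and was called lower with extract, on PBS replicate 1 alone. Genotype and other differences between these lungs cannot be told apart for a gene that also separates libraries of 1 group. Between the genotypes over both treatments, 4 of the 6 members had an unadjusted p under 0.05, and DESeq2 called 2, Psca and Ly6c1. Ly6c1 was higher in double knockout, with a log2 fold change of 0.50 ± 0.12 (adjusted p = 0.192, edgeR).

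Epithelial markers were measured beside Psca. Of 6 markers of stomach and bladder epithelium, Tff1 and Gkn1, which are defining for stomach, were at 0 in every group. The sum of the 6 was 1.88 CPM in wild type with PBS, 1.28 to 1.32 CPM in wild type with extract, 1.26 CPM in double knockout with PBS and 0.425 to 1.40 CPM in double knockout with extract. In the RNase III set it was 3.20 to 11.6 CPM with PBS, 7.93 to 10.3 CPM with extract and 4.55 to 7.21 CPM with RNase III-treated extract. The 8 markers of squamous and basal epithelium summed to 1.02 to 13.1 CPM over the 12 libraries. Their part in the Psca values was not tested.

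**Figure D4:**
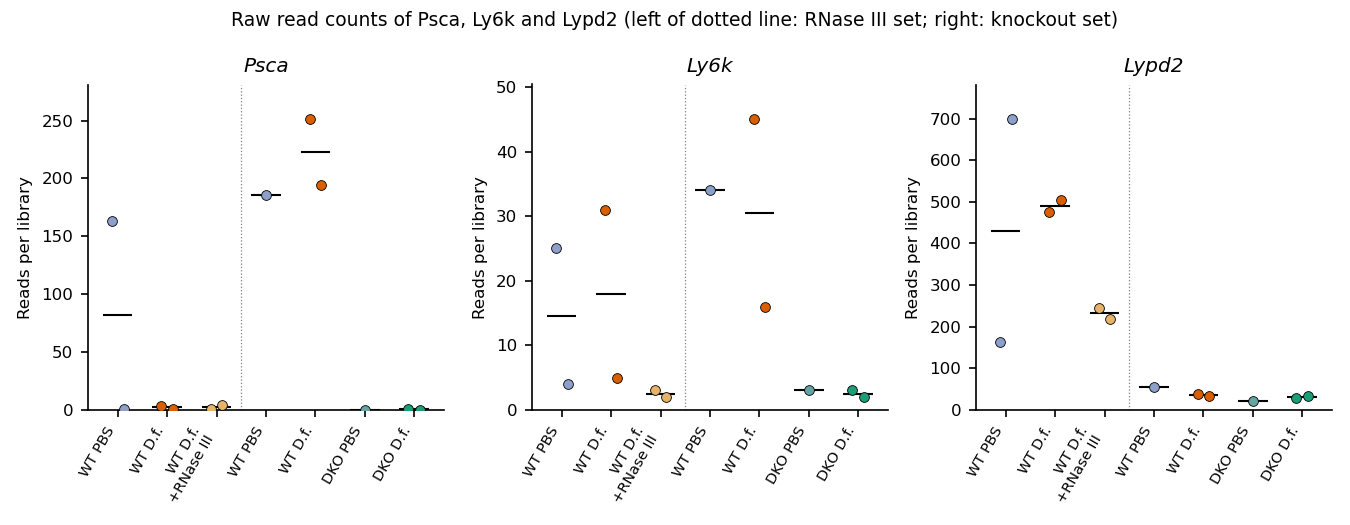
Raw reads per library of Psca, Ly6k and Lypd2 (linear axes from 0), with the RNase III set left of the dotted line; points are libraries and bars are group means. Psca reaches 163 to 251 reads in 4 libraries and at most 4 in the others, and the double-knockout libraries hold 2 or 3 reads of Ly6k.

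Other genes of the family were compared through a list of 31 genes with a Ly6 or uPAR domain. It has 28 genes in the tables, of which 17 were tested in the first set and 15 in the second. With extract 0 of these passed in either set alone (edgeR; 7 and 1 at an unadjusted p under 0.05, DESeq2 1 and 0), and their medians were -0.23 and -0.26. Between the genotypes with extract 0 of 15 passed (5 unadjusted, DESeq2 1), with a median of -0.17. The calls were Cd59a, a complement inhibitor, 0.78 ± 0.18 higher with RNase III than with untreated extract (adjusted p = 0.0441, edgeR), and Ly6g6c, -1.31 ± 0.35 with extract over both sets (adjusted p = 0.0414). The Cd59a call was lost without any 1 of replicates 3 to 6 of the RNase III set (adjusted p up to 0.351), and the Ly6g6c call in 5 of 7 fits that left out 1 library (up to 0.159). Genes annotated within 100 kb of the cluster, the members aside, gave 0 calls in all 9 comparisons, with 8 to 10 tested in each. At an unadjusted p under 0.05 they numbered 1 to 4 per comparison, and DESeq2 called 0 or 1. Most neighbours were nevertheless lower in double knockout. Their median log2 fold change was -0.43 with extract (1 of 8 positive) and -0.57 over both treatments (0 of 8 positive, 4 at an unadjusted p under 0.05). With RNase III against untreated extract it was -0.85 (2 of 10 positive). The cause of these shifts was not tested.

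Ly6k, a relative known from testis that lies between Psca and Ly6e, had 34 reads in wild type with PBS and 45 and 16 with extract in the knockout set, and 3, 3 and 2 reads in the double-knockout libraries. In the RNase III set it had 25 and 4 reads with PBS, 31 and 5 with extract and 3 and 2 with RNase III-treated extract. Libraries with Psca thus also held 16 reads or more of Ly6k, and D.f. replicate 3 held 31 reads of Ly6k with 3 of Psca. The genotype difference of Ly6k with extract was -3.58 ± 0.70 and did not pass (adjusted p = 0.0712, edgeR). Ly6d, which marks lymphoid progenitors and squamous epithelium, measured -1.50 ± 0.33 in that comparison (adjusted p = 0.0945).

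A list of 20 type I interferon-stimulated genes gives the scale of the responses. With extract 20 of 20 rose in the RNase III set, with a median log2 fold change of 3.97, and 15 of 20 in the knockout set, with a median of 5.03. With RNase III 20 of 20 fell against untreated extract (median -3.98), and 18 of 20 were lower in double knockout with extract (median -4.32). Within the double knockout 0 of 20 were called with extract (edgeR; 3 at an unadjusted p under 0.05, DESeq2 0), with a median of 0.90. In wild type with extract the log2 fold changes of Ly6i were above the medians in both sets, Ly6c2 was above in the first and below in the second, and Ly6e, Ly6a and Ly6c1 were below.

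Genes whose pattern over the 12 libraries was nearest to a member were found by the root-mean-square difference of log2 CPM, each gene centred on its mean within a set, among 13137 genes. Nearest to Ly6e were Tapbp (0.12), Tmem106a (0.12), Psme1 (0.13) and Tapbpl (0.13), beside an SD of 0.71 for Ly6e itself. Tapbp and Tapbpl encode tapasin and its relative, which load peptide on MHC class I molecules, and Psme1 encodes a subunit of the proteasome activator. Nearest to Ly6c2 (SD 1.82) were Ms4a4c (0.22), Slfn8 (0.28), Gm4902 (0.33) and Ifi204 (0.39). Nearest to Ly6i (SD 2.63) were Cxcl3 (0.76), a chemokine, Irg1 (0.81), the enzyme that makes itaconate, Slfn4 (0.82) and Gm4841 (0.87). The differences are not scaled to the SD, which was largest for Ly6i, so these larger values do not set Ly6i apart. Among the 4 genes nearest to Ly6a (SD 0.71) were Naip2 (0.24), Fcer1g (0.25) and Casp1 (0.25). Nearest to Ly6c1 (SD 0.60) were C5ar1 (0.23), the receptor of complement C5a, Fcgr2b (0.23), Mmp8 (0.24) and Trpm2 (0.25). Among the 10 pairs of members, Ly6a and Ly6c1 were nearest at 0.29, followed by Ly6e and Ly6a at 0.32. The near copies Ly6c1 and Ly6c2 stood at 1.52. The values for pairs are not scaled either. With SDs of 0.60 for Ly6c1 and 1.82 for Ly6c2, the 1.52 also holds their unequal size of change.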

How the data were processed

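The members and gene lists were chosen with earlier results of these data known. The deposited values are raw read counts per gene, 1 table per library, whole numbers not normalized by the authors. Per the labels' protocols, total RNA was sequenced in 100-base single-end reads, and per the submitters' processing notes reads were mapped to mm9 with TopHat2 2.0.8b and counted with HTSeq. For HTSeq, annotation and strand setting were not given in the sources used here. Assigned reads were 23.1% to 28.2% of each table, and totals of unassigned reads were kept out.

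The tests used edgeR 4.0.16 in R 4.3.3 (TMM, filterByExpr, glmQLFit, glmQLFTest, two-sided, Benjamini-Hochberg over all genes tested, threshold 0.05), and the code was tested on simulated data. Each set was fitted on its 6 libraries; where a group has, or is left with, 1 library, its spread was taken from the replicated groups. SE is the size of the log2 fold change fitted without a prior count, over the root of F. The log2 fold changes printed include a prior count. All members were named, with the 4 genes most alike (mean log2 CPM of at least 1) and at most 4 genes a list; 1 gene near Ly6a is not reported here. Exon windows were aligned to chromosome 15 with bwa 0.7.19. DESeq2 1.42.0, RLE factors, no filter, 1 fit of all 12 libraries and leaving out each library were the alternatives.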

Additional observations from a re-analysis of the deposited data

How the results depend on the processing

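RLE factors moved no member's call and no count by over 1.5 times. DESeq2 called 1 member in RNase III-treated extract against PBS (48 genes against 1 in edgeR), 3 in extract against PBS within the double knockout (36 genes against 0), 3 in the interaction (213 genes against 1) and 2 between genotypes over both treatments (481 genes against 31). It called 1905 genes against 1246 for RNase III-treated against untreated extract, 648 against 232 for wild type in the knockout set and 736 against 387 between genotypes with extract. Without the filter 1 member and 10 genes were called in RNase III-treated extract against PBS, and 391, 16 and 75 genes for wild type in the knockout set, the interaction and the genotypes over both treatments. One fit of all 12 libraries gave 391, 7 and 15 genes for those 3, with 0 members for the last.

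Leaving out 1 library gave 3 to 6 members and 584 to 3071 genes for extract against PBS in the RNase III set, 0 to 2 and 0 to 188 for RNase III-treated extract against PBS, and 2 to 5 and 146 to 2874 for treated against untreated extract. In the knockout set it gave 0 to 5 and 0 to 3150 for wild type, 0 to 3 and 0 to 2092 within the double knockout, 0 to 5 and 7 to 3048 between genotypes with extract, 0 to 4 and 0 to 1666 for the interaction, and 0 to 4 and 2 to 383 over both treatments. For both sets it gave 4 to 5 and 1080 to 2428. The direction turned only for values that were not called. In RNase III-treated extract against PBS these were Ly6a (-0.32 to 0.62 over the fits without 1 library, -0.071 without replicate 6) and Ly6c1 (-0.24 to 0.74, -0.055 without replicate 6). The others were Ly6c2 within the double knockout (-0.051 to 0.80), Ly6c1 in the interaction (-0.28 to 0.067), Ly6a over both treatments (-0.28 to 0.079, 0.016 without double-knockout replicate 6, 0.054 in the fit of 12 libraries) and Psca over both sets (-5.67 to 0.19, the latter without PBS replicate 1). The cause was not tested.

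No paired analysis was possible because the groups compared share no replicate number. Leaving out the only PBS library of a genotype was not run where it empties a group. Depth limits Psca, Ly6g and Ly6i, whose low groups hold a few reads.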

Other observations

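BC025446, a gene of the Ly6 cluster region that no comparison tested, had 7 and 5 reads in the D.f. libraries of the RNase III set and 0 in the 4 other libraries of that set, against the 3 reads that a count of 0 allows. Ly6f had 0 reads in all 12 libraries. Lypd2 and Slurp1, which overlap each other on the minus strand near Psca, differed in level between the sets. Lypd2 had 163 to 698 reads per library in the first set and 21 to 55 in the second. Slurp1 had 23 to 118 reads per library in the first set, 25 to 31 in wild type of the second and 2 to 15 in double knockout. Its difference between the genotypes with extract was -1.30 ± 0.46 (adjusted p = 0.223, edgeR).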
